A study of Mus musculus with 10 samples.

Results

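The fibroblast growth factor (FGF) pathway genes described here were 36 of the 21729 protein-coding genes measured in digit tips of ΔLARM1/2 mutant and wild type mice. They were chosen by name: 22 genes named Fgf with a number, the receptors and binding protein Fgfr1, Fgfr2, Fgfr3, Fgfr4, Fgfrl1 and Fgfbp1, the feedback inhibitors Spry1, Spry2, Spry4, Spred1, Spred2 and Dusp6, and the Ets transcription factors Etv4 and Etv5. ΔLARM1/2 removes a pair of limb enhancers of Lmx1b, the homeobox gene that specifies dorsal limb identity, and the study asked whether digit tips regenerate when Lmx1b is absent. The groups were mutants at 12 days post amputation (dpa) with 3 libraries, wild type at 12 dpa with 2, mutants at 14 dpa with 3 and wild type at 14 dpa with 2. Animals of both genotypes were of a mixed CD1 and C57Bl/6 background, aged 33 days at 12 dpa and 35 days at 14 dpa, and each library pooled 6 amputated central hindlimb digits. The labels give no promoter, Cre or cell sorting, so each library is RNA of whole dissected tissue.

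Total expected counts were 69998104 to 101632364 per library. By counts of Y-linked genes 6 libraries were classed as male and 4 as female, with 1 female library in each group. Wild type 14 dpa replicate 1, classed as male, had 1292 counts of Xist, an RNA made in female cells. The other libraries classed as male had 11 to 46, so the class of that replicate is uncertain. The sex covariate used these classes. Lmx1b, the gene whose enhancers were removed, lay at 0.0278 to 0.336 CPM (counts scaled to library size) in the 6 mutant libraries and 1.69 to 2.94 CPM in the 4 wild type libraries. One library, mutant 14 dpa replicate 1 by its title, has a genotype tag of wild type, but its Lmx1b of 0.234 CPM lay inside the mutant range, and it was kept as mutant. Without it, 14 FGF pathway genes passed the genotype test over both days, as with it, and 13 were the same genes. The marker genes of digit blastema, a list of 10, summed to 63.3 to 262 TPM (transcript levels scaled for gene length and library size) in mutants and 593 to 2297 TPM in wild type, so the labelled tissue expressed its markers at a lower level in mutants. Most of that sum was Lrrc15, at a mean of 401 TPM and a log2 fold change, mutant over wild type, of -6.23. The other markers had smaller changes, from -3.01 for Mest to -0.70 for Postn, which did not pass the genotype test.

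FGFs are secreted proteins that bind a receptor tyrosine kinase together with heparan sulfate, or with a Klotho protein for the hormone-like FGFs. The receptor activates the Ras and MAP kinase cascade, which in many tissues induces Spry, Spred and Dusp6 genes, whose products dampen the cascade, and the Ets factors Etv4 and Etv5. In the developing limb, Fgf10 from mesenchyme and Fgf8 and Fgf4 from the apical ectodermal ridge sustain outgrowth, and in the mouse digit tip FGF signalling has been tied to nail-dependent regrowth.

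Over both days together, 14 of the 26 FGF pathway genes that could be tested differed between mutant and wild type, 4 higher and 10 lower in mutants. Higher in mutants were Fgf12, Fgfbp1, Fgfr3 and Spry1, and lower were Fgf1, Fgf2, Fgf9, Fgf10, Fgf11, Fgf18, Fgfr1, Fgfrl1, Spry4 and Dusp6. The test was edgeR's quasi-likelihood test with Benjamini-Hochberg adjustment over all 20216 genes tested, at an adjusted p of 0.05, and every adjusted p below comes from it unless another tool is named. Among all tested genes 43.7% passed the same test, 21.5% higher and 22.2% lower, and no test set the members against that background. These counts cover tested members only, and a gene can pass the filter on low counts through its higher group alone. The median log2 fold change was -0.39 over the tested members and 0.02 over all tested genes. In 13 of the tested members the genotypes did not overlap in CPM within either day, 3 higher and 10 lower in mutants. Among all tested genes the share was 37.2%, 18.0% higher and 19.3% lower. The remaining 10 members, all ligands, had too few counts to be tested.

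Promoter sequence is shown for 3 of the genes on which the comparison turns, the ligands Fgf10 and Fgf18, which were lower in mutants, and the receptor gene Fgfr3, which was higher. Each line holds the 200 bases just before the transcription start, 5′ to 3′ on the gene's strand, from RefSeq on GRCm38.p6. Capitals mark CG dinucleotides, whose density separates CpG island promoters from others. The letters CG read the same on both strands.
Fgf10 (chr13:118714499-118714698, plus strand): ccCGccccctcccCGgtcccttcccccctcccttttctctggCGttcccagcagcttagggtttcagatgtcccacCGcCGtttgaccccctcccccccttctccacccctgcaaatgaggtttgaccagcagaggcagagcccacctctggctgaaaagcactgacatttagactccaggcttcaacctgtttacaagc
Fgf18 (chr11:33147401-33147600, minus strand): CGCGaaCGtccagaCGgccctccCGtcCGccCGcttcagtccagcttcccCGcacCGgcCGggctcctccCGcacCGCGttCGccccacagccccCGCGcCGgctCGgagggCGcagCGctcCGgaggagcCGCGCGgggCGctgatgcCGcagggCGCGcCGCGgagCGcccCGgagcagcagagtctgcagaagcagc
Fgfr3 (chr5:33721524-33721723, plus strand): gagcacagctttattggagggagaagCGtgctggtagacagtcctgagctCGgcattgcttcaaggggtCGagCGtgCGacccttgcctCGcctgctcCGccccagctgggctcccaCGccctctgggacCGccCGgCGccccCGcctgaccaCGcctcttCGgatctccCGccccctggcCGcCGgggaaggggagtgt
The Fgf18 window held 32 CG dinucleotides, a number that 1.8% of the 32851 promoter windows of the same length reach or exceed. The Fgfr3 window held 17, which 18.2% reach or exceed, and the Fgf10 window held 5, equal to the median of all windows. The 2 ligand genes shown, both lower in mutants, thus had very different CG densities. The table lists 2 starts for Fgfr3, of which 1 is shown, and it holds 27 of the 36 members. Among other members, the windows of Spry1, higher in mutants, and Fgfrl1, lower in mutants, held 22 CG each. Whether the number of CG goes with the direction of change was not tested.

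Ligand transcripts were scarce, and a few genes supplied most of them. Of the 22 ligands, counted with the intracellular family members Fgf11 to Fgf14, 3 reached a mean of 1 TPM over the 10 libraries. The ligand sums below include those intracellular members too. Fgf22, a ligand of the FGF7 subfamily, averaged 12.6 TPM, Fgf1 averaged 3.67 TPM and Fgf18 averaged 1.10 TPM. Fgf22 made up 55.2% to 79.6% of all ligand TPM in the mutant libraries and 45.0% to 59.1% in the wild type libraries, so it was the most abundant ligand in all 10. The TPM of ligands other than Fgf22 and Fgf1 summed to 1.77 to 6.02 in mutants and 5.56 to 10.2 in wild type. Those ranges overlapped only through mutant 12 dpa replicate 3, in which Fgf7 was listed at 2.36 TPM.

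The FGF8 subfamily gave the largest difference among the tested ligands. Fgf18, a ligand known for its part in cartilage, bone and hair growth, had 0.248, 0.129 and 0.414 CPM in mutants and 2.29 and 4.65 CPM in wild type at 12 dpa. At 14 dpa it had 0.195, 0.239 and 0.0833 CPM in mutants and 2.25 and 2.17 CPM in wild type. Every mutant library lay below every wild type library. Over both days Fgf18 was 12.8-fold lower in mutants, a log2 fold change of -3.67 (SE 0.37, adjusted p = 0.000172), and it passed on each day alone (-3.70 at 12 dpa, adjusted p = 0.00285, and -3.64 at 14 dpa, adjusted p = 0.0023). Fgf8, the ridge ligand of the limb bud, had 0 counts in all 10 libraries, where a count of 0 allows up to 3 counts. Fgf17, its close relative, had 7 counts in all, and Fgf4 of the FGF4 subfamily had 5, so these 3 ridge ligands were at or near 0 in both genotypes.

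Most FGF7 subfamily ligands act on epithelium through the epithelial form of Fgfr2. Fgf10, the mesenchymal ligand of limb outgrowth, had 1.75, 1.12 and 1.57 CPM in mutants and 5.07 and 5.39 CPM in wild type at 12 dpa. At 14 dpa it had 0.977, 2.88 and 1.99 CPM in mutants and 7.60 and 7.97 CPM in wild type. The genotypes did not overlap on either day. Fgf10 was 3.75-fold lower in mutants over both days (log2 fold change -1.91, SE 0.26, adjusted p = 0.00065) and passed on each day, although at 12 dpa leaving out wild type 12 dpa replicate 2 ended the call (adjusted p = 0.0758). An antisense gene overlaps Fgf10. No source used here gives the strand setting of the counting, so the values of Fgf10 may include some reads of the antisense gene.

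The other FGF7 subfamily ligands did not pass. Fgf22 had 12.0, 18.9 and 15.9 CPM in mutants and 26.4 and 31.4 CPM in wild type at 12 dpa, without overlap, but 28.5, 17.2 and 14.2 CPM in mutants and 18.6 and 16.1 CPM in wild type at 14 dpa, where the highest was the tagged mutant library. Over both days its log2 fold change was -0.34 (SE 0.20, adjusted p = 0.192). Without that library Fgf22 passed, lower in mutants. Fgf22 overlaps Rnf126 on the opposite strand, a gene that was higher in mutants (log2 fold change 0.52, adjusted p = 0.00148), so the values of Fgf22 are uncertain. Fgf7, the keratinocyte growth factor, had 1.13, 0.75 and 3.88 CPM in mutants and 1.70 and 1.20 CPM in wild type at 12 dpa, with overlap, and 0.117, 1.24 and 0.694 CPM in mutants and 2.00 and 2.22 CPM in wild type at 14 dpa, without overlap. Its log2 fold change was 0.41 at 12 dpa (adjusted p = 0.777), -1.61 at 14 dpa (adjusted p = 0.174) and -0.60 over both days (SE 0.60, adjusted p = 0.446), and none passed. Fgf3 ranged from 0 to 0.685 CPM in mutants and 0.537 to 2.45 CPM in wild type, with no overlap within a day, and missed the threshold (log2 fold change -2.43, SE 1.05, adjusted p = 0.0916).

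**Figure D1:**
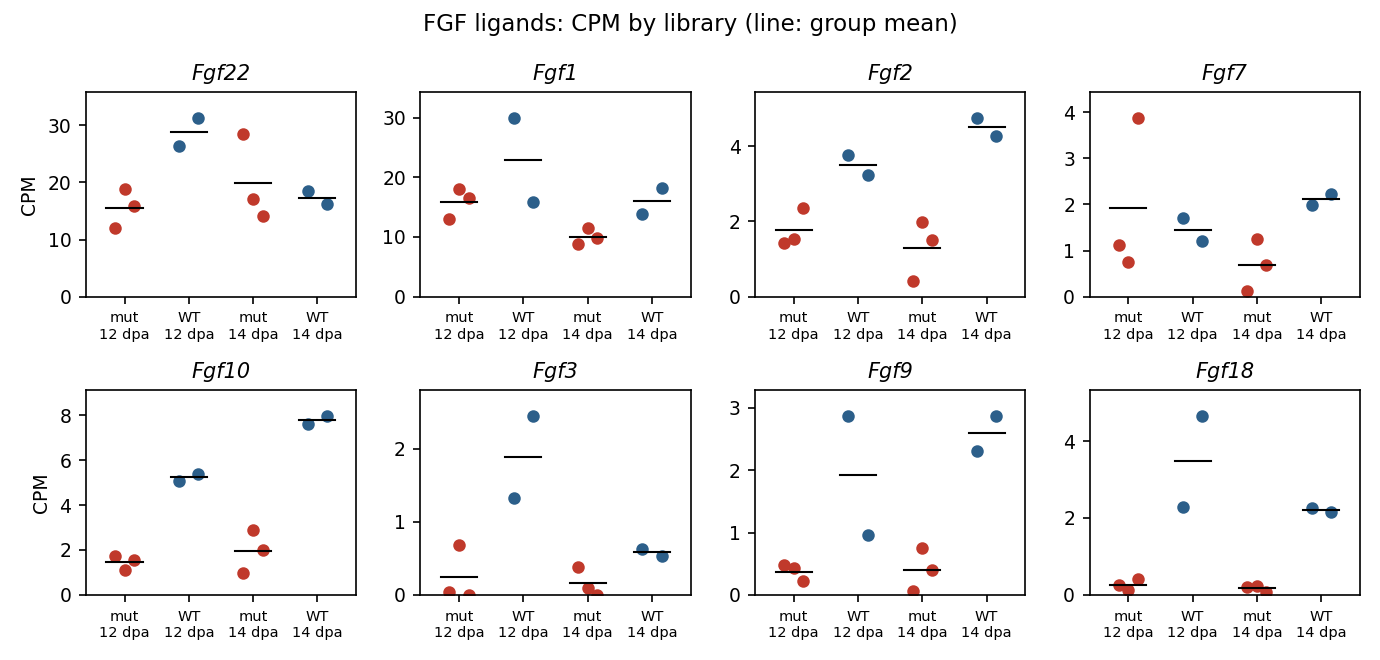
Ligands by library, in CPM, with 1 panel per gene, mutants in red and wild type in blue on each day and a line at each group mean. Fgf10 and Fgf18 lie below wild type in all 6 mutant libraries, with 0.0833 to 0.414 CPM of Fgf18 in mutants and 2.17 to 4.65 CPM in wild type.

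Both members of the FGF1 subfamily, which leave the cell without a signal peptide, were lower in mutants over both days. Fgf2, the ligand that has been tied to digit blastema growth, had 1.42, 1.54 and 2.36 CPM in mutants and 3.76 and 3.23 CPM in wild type at 12 dpa, and 0.417, 1.98 and 1.51 CPM in mutants and 4.76 and 4.26 CPM in wild type at 14 dpa. The genotypes did not overlap, and Fgf2 was 2.60-fold lower in mutants (log2 fold change -1.38, SE 0.35, adjusted p = 0.0119). Fgf2 overlaps Nudt6 on the opposite strand, which was higher in mutants (log2 fold change 0.75, adjusted p = 0.00478), opposite in direction to Fgf2. Fgf1, which binds all FGF receptors, ranged from 8.75 to 18.1 CPM in mutants and 13.9 to 30.0 CPM in wild type, with overlap at 12 dpa. Its log2 fold change was -0.61 (SE 0.18, adjusted p = 0.0238). Without wild type 12 dpa replicate 1, the library with the most Fgf1, it was -0.34 (adjusted p = 0.112), and the call also ended without mutant 12 dpa replicate 1 (adjusted p = 0.0511), without wild type 14 dpa replicate 2 (adjusted p = 0.0827) and on the log2 TPM + 1 scale (limma, adjusted p = 0.372).

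Fgf9 of the FGF9 subfamily, which acts between epithelium and mesenchyme in many organs, had 0.473, 0.426 and 0.224 CPM in mutants and 2.86 and 0.966 CPM in wild type at 12 dpa. At 14 dpa it had 0.0651, 0.756 and 0.403 CPM in mutants and 2.31 and 2.87 CPM in wild type. All mutant libraries lay below all wild type libraries, and Fgf9 was 5.65-fold lower in mutants (log2 fold change -2.50, SE 0.54, adjusted p = 0.0059). At 12 dpa alone it missed the threshold (adjusted p = 0.0644). Its relative Fgf16 lay at or below 0.181 CPM in every library and did not pass (adjusted p = 0.436).

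Of the intracellular family members Fgf11 to Fgf14, which bind sodium channels and not FGF receptors, 1 was lower and 1 higher. Fgf11 had 0.361 to 0.833 CPM in mutants and 0.764 to 1.58 CPM in wild type, with no overlap within a day, and was 2.03-fold lower (log2 fold change -1.02, SE 0.20, adjusted p = 0.00353). Fgf12 had 0.912, 0.892 and 2.00 CPM in mutants and 0.136 and 0.286 CPM in wild type at 12 dpa, but 0.273, 0.477 and 0.264 CPM in mutants and 0.336 and 0.144 CPM in wild type at 14 dpa, where the genotypes overlapped. Over both days it was 2.93-fold higher in mutants (log2 fold change 1.55, SE 0.42, adjusted p = 0.0138), a call that ended without wild type 12 dpa replicate 1 (adjusted p = 0.054) and without wild type 14 dpa replicate 2 (adjusted p = 0.0598). Fgf13 showed a log2 fold change of -0.01 (adjusted p = 0.98), whose sign was positive under 7 of 20 alternatives, both TPM scales among them.

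The ligands not tested were Fgf4, Fgf5, Fgf6, Fgf8, Fgf14, Fgf15, Fgf17, Fgf20, Fgf21 and Fgf23. Their totals over the 10 libraries were 15 counts or fewer except for Fgf21, a hormone-like ligand, which had 62 counts, 26 of them in wild type 12 dpa replicate 2. These genes did not pass the count filter, so the main fit did not test them for a difference between genotypes.

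The receptors were far more abundant than the ligands, and their balance differed between genotypes. Fgfr2 averaged 50.1 TPM over the 10 libraries, Fgfr3 averaged 30.3 TPM, Fgfr1 averaged 18.3 TPM and Fgfr4 averaged 0.094 TPM. Fgfr3, the receptor known for restraining bone growth and also expressed in epidermis, had 161, 149 and 137 CPM in mutants and 64.6 and 64.6 CPM in wild type at 12 dpa. At 14 dpa it had 179, 137 and 151 CPM in mutants and 65.9 and 83.9 CPM in wild type. The groups were far apart, and Fgfr3 was 2.19-fold higher in mutants (log2 fold change 1.13, SE 0.11, adjusted p = 0.000127), passing on each day alone (1.21 and 1.05).

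Fgfr1, the receptor of mesenchyme in the limb, ran the other way. It had 60.7, 67.2 and 71.4 CPM in mutants and 107 and 106 CPM in wild type at 12 dpa, and 46.7, 72.3 and 53.5 CPM in mutants and 122 and 88.0 CPM in wild type at 14 dpa. In CPM no mutant library reached a wild type library. In TPM mutant 12 dpa replicate 3, at 22.7 TPM, lay above wild type 12 dpa replicate 1, at 22.0 TPM. Fgfr1 was 1.71-fold lower in mutants (log2 fold change -0.78, SE 0.13, adjusted p = 0.00189). Fgfr2 ranged from 191 to 211 CPM in mutants and 155 to 209 CPM in wild type, overlapping at 14 dpa, and did not pass (log2 fold change 0.19, SE 0.09, adjusted p = 0.108). The gene-level tables do not separate its epithelial and mesenchymal splice forms, and its gene overlaps Ctbp2 on the same strand. Genes annotated on the opposite strand overlap Fgfr1 and Fgfr3, so the limit given for Fgf10 holds for both. Fgfr4 stayed at or below 0.537 CPM and did not pass (adjusted p = 0.753).

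Taken as shares of the summed TPM of the 4 receptors, Fgfr3 made up 32.1% to 42.3% in mutants and 19.0% to 20.8% in wild type, and Fgfr1 made up 10.1% to 17.0% in mutants and 22.5% to 33.7% in wild type. Fgfr2 held 47.6% to 51.9% in mutants and 46.6% to 56.6% in wild type. The ratio of Fgfr3 to Fgfr1 TPM was 2.02 to 2.68 in the mutants of 12 dpa, against 0.641 and 0.703 in their wild type libraries, and 1.95 to 4.20 in the mutants of 14 dpa, against 0.578 and 0.923 in theirs. Fgfr3 thus exceeded Fgfr1 in every mutant library and in no wild type library, while the share of Fgfr2 overlapped between genotypes. These shares are a description of values already tested gene by gene.

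**Figure D2:**
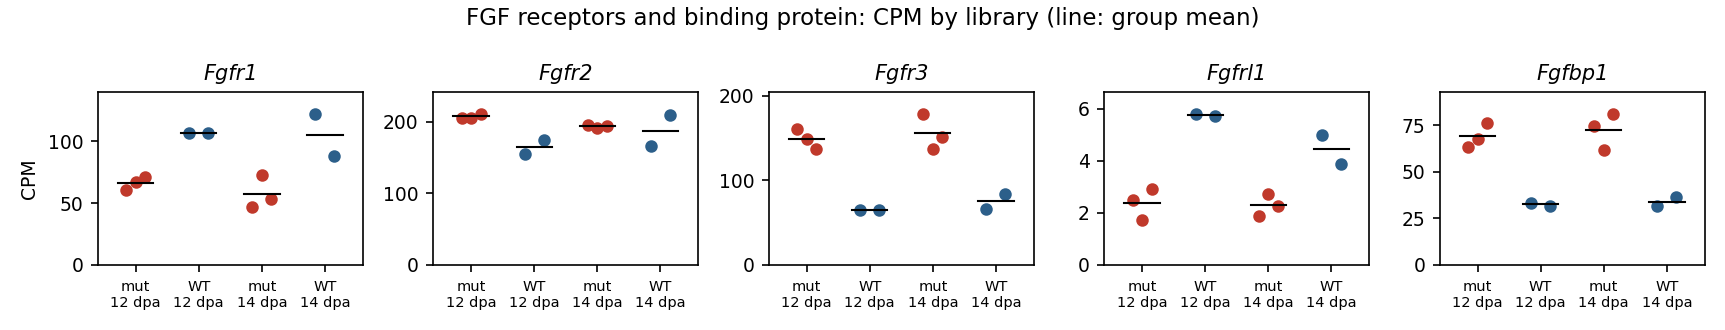
Receptors and the binding protein by library, in CPM, with mutants in red and wild type in blue on each day and a line at each group mean. Fgfr3 and Fgfbp1 are higher and Fgfr1 and Fgfrl1 lower in all 6 mutant libraries, and Fgfr2 overlaps at 14 dpa.

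**Figure D3:**
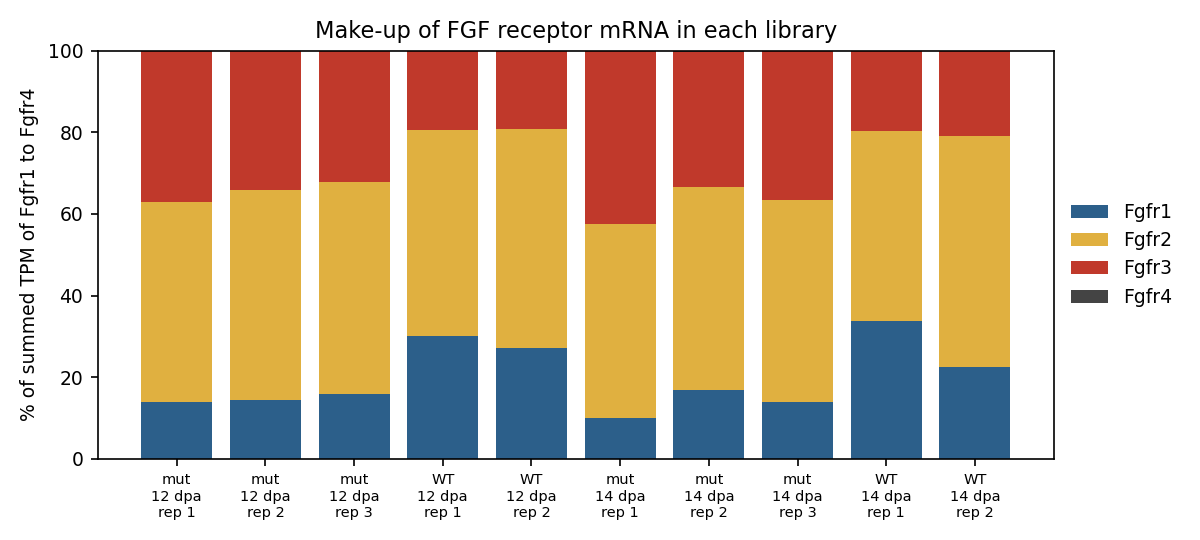
Share of each receptor in the summed TPM of Fgfr1 to Fgfr4, in percent, with 1 bar per library, mutants left of wild type on each day. The Fgfr3 part is 32.1% to 42.3% in mutants and 19.0% to 20.8% in wild type, and the Fgfr1 part is smaller in mutants.

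Fgfbp1, a secreted carrier that frees FGFs from the matrix, had 63.3, 67.6 and 75.8 CPM in mutants and 33.4 and 31.7 CPM in wild type at 12 dpa, and 74.5, 61.9 and 81.1 CPM in mutants and 31.4 and 36.4 CPM in wild type at 14 dpa. It was 2.13-fold higher in mutants (log2 fold change 1.09, SE 0.10, adjusted p = 0.000107), with no overlap. Fgfrl1, a receptor-like protein without a kinase domain, had 1.74 to 2.91 CPM in mutants and 3.90 to 5.82 CPM in wild type, also without overlap. It was 2.16-fold lower in mutants (log2 fold change -1.11, SE 0.18, adjusted p = 0.0014).

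Markers of tissue layers moved with these genes. In bulk tissue, fewer cells of a type and less RNA per cell cannot be told apart. Of 10 keratinocyte markers, which mark the epidermis, 8 were higher in mutants, 1 lower and 1 did not pass, and their summed TPM was 29735 to 49351 in mutants and 14884 to 20027 in wild type. Of 10 connective tissue fibroblast markers 8 were lower in mutants and 2 did not pass, with a sum of 481 to 2008 TPM in mutants and 2149 to 3819 TPM in wild type. Of 10 blastema markers 9 were lower and 1 did not pass. That list is not separate from the others, since it shares Prrx1, Pdgfra and Postn with the fibroblast list and Acan with the chondrocyte list. Of 9 tested nail and hard keratin markers all 9 were lower, with a sum of 52.9 to 765 TPM in mutants and 6825 to 27683 TPM in wild type. All 10 endothelial markers were lower, with a sum of 9.94 to 27.0 TPM in mutants and 41.5 to 64.3 TPM in wild type, and so were 6 of 8 osteoblast markers, with 8.06 to 92.2 TPM in mutants and 142 to 227 TPM in wild type. The 4 of 6 tested chondrocyte markers and 5 of 7 tested macrophage markers that were lower belonged to lists whose sums overlapped, at 37.4 to 74.2 TPM in mutants and 51.8 to 73.3 TPM in wild type for chondrocytes and 15.4 to 56.5 TPM in mutants and 26.5 to 43.1 TPM in wild type for macrophages. In the neutrophil list 4 of 5 tested markers were higher, with 118 to 2075 TPM in mutants and at most 42.6 TPM in wild type. That sum was mostly S100a8 and S100a9, at means of 260 and 328 TPM over the 10 libraries. The other tested markers averaged 0.405 TPM (Csf3r), 2.09 TPM (Cxcr2) and 0.361 TPM (Retnlg), and Retnlg did not pass. Ly6g, Mpo and Elane of the same list were not tested. Of 4 tested muscle markers 1 was higher and 1 lower, and the list summed to at most 1.24 TPM in any library. No marker was at 0 in all libraries except Elane of the neutrophil list and Myh4 of the muscle list. The part of these markers in the differences of the FGF pathway genes was not tested.

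The feedback inhibitors split by gene. Spry4, an inhibitor of the Ras and MAP kinase cascade, had 2.17, 2.25 and 2.72 CPM in mutants and 7.58 and 6.61 CPM in wild type at 12 dpa, and 1.16, 1.71 and 1.17 CPM in mutants and 5.51 and 3.63 CPM in wild type at 14 dpa. The genotypes were apart on both days, and Spry4 was lower in mutants (log2 fold change -1.67, SE 0.18, adjusted p = 0.000222). Its relative Spry1 went the other way, with 35.4, 32.1 and 37.0 CPM in mutants and 31.7 and 29.6 CPM in wild type at 12 dpa, and 54.4, 49.0 and 36.4 CPM in mutants and 28.6 and 25.3 CPM in wild type at 14 dpa. Spry1 was higher in mutants over both days (log2 fold change 0.49, SE 0.11, adjusted p = 0.00774) and at 14 dpa (0.79, adjusted p = 0.00771), where leaving out wild type 14 dpa replicate 2 ended the call (adjusted p = 0.0789). At 12 dpa it did not pass (0.18, adjusted p = 0.453). A gene annotated on the opposite strand overlaps Spry1, so the limit given for Fgf10 holds here too.

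Dusp6, the phosphatase that inactivates ERK, was the most abundant feedback inhibitor, at a mean of 12.8 TPM. It had 28.3, 23.9 and 50.8 CPM in mutants and 56.7 and 52.9 CPM in wild type at 12 dpa, and 33.9, 36.5 and 32.6 CPM in mutants and 46.9 and 54.1 CPM in wild type at 14 dpa. In CPM all mutant libraries lay below the wild type libraries of their day, with mutant 12 dpa replicate 3 close to them. In TPM the genotypes overlapped on both days. Mutant 12 dpa replicate 3 had 20.7 TPM, against 16.5 and 17.4 TPM in wild type. At 14 dpa mutants had 8.99 to 10.4 TPM, against 9.97 and 14.8 TPM in wild type. Over both days Dusp6 was 1.53-fold lower in mutants (log2 fold change -0.62, SE 0.19, adjusted p = 0.025), and neither day passed alone. Leaving out 1 library ended the call in 6 cases, at 12 dpa for mutant replicate 1 and both wild type replicates, and at 14 dpa for mutant replicates 1 and 3 and wild type replicate 2 (adjusted p between 0.0501 and 0.0748). It was also lost on the log2 TPM + 1 scale (limma, adjusted p = 0.19).

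Spry2, Spred1 and Spred2 did not pass. Spry2 had 19.2 to 29.3 CPM in mutants and 18.4 to 32.7 CPM in wild type, Spred1 had 49.6 to 73.8 CPM in mutants and 63.3 to 74.2 CPM in wild type, and Spred2 had 31.5 to 47.9 CPM in mutants and 31.6 to 43.0 CPM in wild type. The genotypes overlapped within each day for Spred1 and Spred2 and at 12 dpa for Spry2, while at 14 dpa Spry2 had 25.3 to 29.3 CPM in mutants and 20.2 and 22.7 CPM in wild type, without overlap. Their log2 fold changes over both days were 0.06 for Spry2, -0.17 for Spred1 and 0.04 for Spred2, and each took the opposite sign under some alternatives.

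The Ets factors did not pass either. Etv4, the more abundant of the pair at a mean of 3.68 TPM, had 8.16, 4.54 and 9.77 CPM in mutants and 5.19 and 8.51 CPM in wild type at 12 dpa, and 6.32, 5.56 and 5.30 CPM in mutants and 6.93 and 7.65 CPM in wild type at 14 dpa. In CPM the genotypes overlapped at 12 dpa only, while in TPM they overlapped on both days. The log2 fold change of Etv4 was -0.11 (adjusted p = 0.708), positive under 4 of 20 alternatives. Etv5 had 10.3 to 16.7 CPM in mutants and 13.8 to 21.2 CPM in wild type, overlapping at 12 dpa, with a log2 fold change of -0.44 (SE 0.19, adjusted p = 0.0787). It passed, lower in mutants, when 1 of 3 libraries was left out, mutant replicate 3 or wild type replicate 1 of 12 dpa or mutant replicate 2 of 14 dpa.

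**Figure D4:**
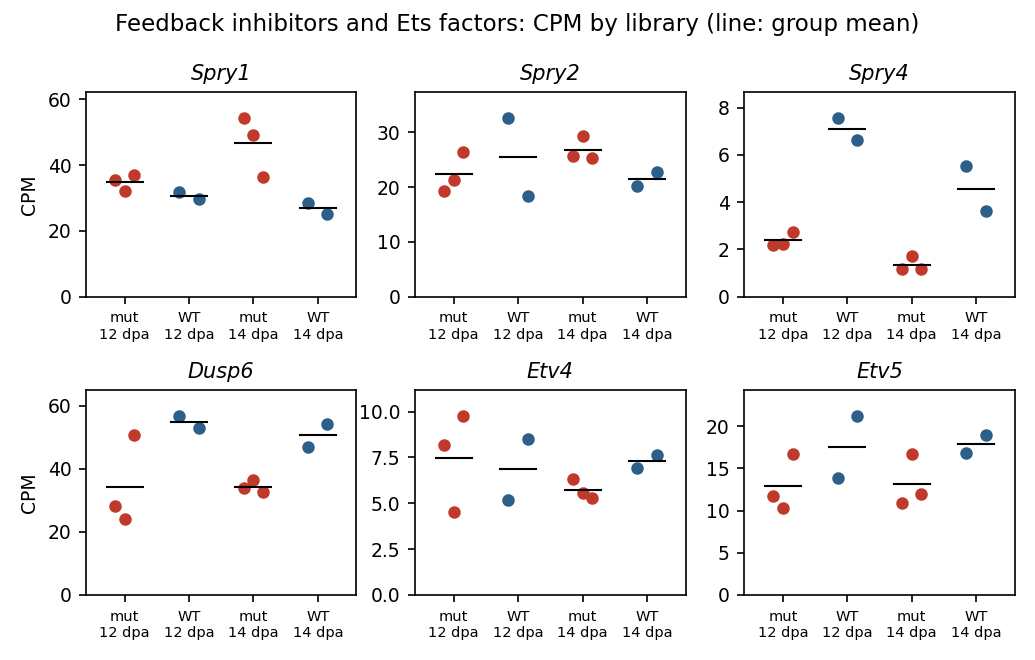
Feedback inhibitors and Ets factors by library, in CPM, with mutants in red and wild type in blue on each day and a line at each group mean. Spry4 lies below and Spry1 above wild type in all mutant libraries of each day, and Spry2 and Etv4 overlap at 12 dpa.

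Other genes of the pathway were counted by list over both days. Among all tested genes 43.7% passed that test, 21.5% higher and 22.2% lower, with a median log2 fold change of 0.02. No test set the lists against that background. Of 22 coreceptor and heparan sulfate genes 21 were tested, and 5 were higher in mutants, 7 lower and 9 did not pass. Klb, the coreceptor of hormone-like FGFs, was listed at 0 TPM in all libraries, and its relative Kl was lower in mutants (0 to 0.142 CPM in mutants and 0.277 to 0.966 CPM in wild type, log2 fold change -3.51, SE 0.68, adjusted p = 0.00313). Ndst1, which sulfates heparan chains, was higher in mutants at 288 to 383 CPM, against 162 to 201 CPM in wild type (log2 fold change 0.77, SE 0.10, adjusted p = 0.000567). Sdc1, the epithelial syndecan and the most abundant gene of the list at 340 TPM, had a log2 fold change of 0.33 (adjusted p = 0.0244), a call that ended without either of mutant replicates 1 and 3 or wild type replicate 2 at 12 dpa, and without mutant replicate 3 or wild type replicate 2 at 14 dpa. The median log2 fold change of the list was -0.03.

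Of 19 genes of the receptor adaptors and MAP kinase cascade 10 were higher in mutants, 0 lower and 9 did not pass, with a median log2 fold change of 0.23. The differences were small, and the number higher was 4 without wild type 14 dpa replicate 2, 4 without wild type 14 dpa replicate 1, 6 without wild type 12 dpa replicate 2 and 14 on the log2 TPM + 1 scale. One gene of the list was called lower when wild type replicate 1 of either day or the second mutant library of 12 dpa was left out, with upper quartile factors and with the strict filter. Mapk3, which encodes ERK1, was the largest of them, at 125 to 177 CPM in mutants and 73.6 to 102 CPM in wild type (log2 fold change 0.81, SE 0.10, adjusted p = 0.000409). Hras, the most abundant gene of the list at 99.1 TPM, had a log2 fold change of 0.32 (adjusted p = 0.0108), which did not pass without wild type 14 dpa replicate 2 (adjusted p = 0.0621). Day by day, 1 of the 19 adaptor and cascade genes was higher at 12 dpa and 18 did not pass, with a median of 0.09. At 14 dpa 9 were higher and 10 did not pass, with a median of 0.31. Among all tested genes 7.18% were higher at 12 dpa and 16.1% at 14 dpa. In the test of a change between days 0 of the 19 passed. Of 15 further MAP kinase feedback genes and targets 14 were tested. Over both days 6 were higher, 4 lower and 4 did not pass, with a median of 0.19. Flrt1, an FGF receptor partner, was higher in mutants at 2.97 to 10.7 CPM, against 1.78 to 3.33 CPM in wild type (log2 fold change 1.47, adjusted p = 0.00807). Spred3 was lower, at 1.11 to 1.77 CPM in mutants and 3.05 to 5.13 CPM in wild type (log2 fold change -1.45, adjusted p = 0.000266). Dusp7, the most abundant of these genes at 47.7 TPM, had a log2 fold change of 0.38 (adjusted p = 0.0212), a call lost without any 1 of the 4 wild type libraries.

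**Figure D5:**
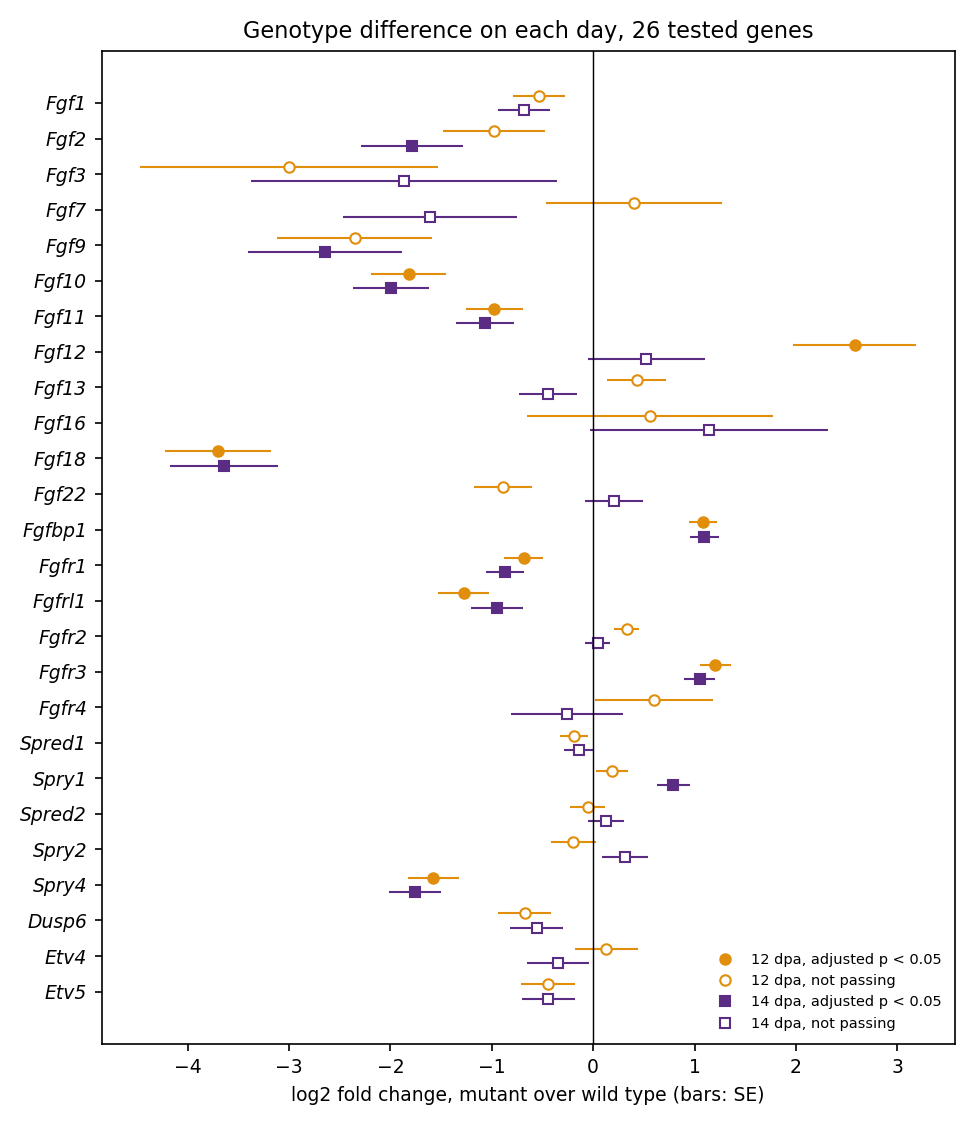
Log2 fold changes, mutant over wild type, of the 26 tested FGF pathway genes (rows) at 12 dpa (circles) and 14 dpa (squares), with bars of 1 SE and filled symbols for genes that passed. Fgf18 lies farthest left, at -3.70 and -3.64, and Fgfr3 lies right of 0 on both days, at 1.21 and 1.05.

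Taken day by day, 9 members passed at 12 dpa, 3 higher and 6 lower in mutants, against a background of 16.5%, 7.18% higher and 9.34% lower. At 14 dpa 11 passed, 3 higher and 8 lower, against a background of 33.3%, 16.1% higher and 17.2% lower. Fgf10, Fgf11, Fgf18, Fgfbp1, Fgfr1, Fgfrl1, Fgfr3 and Spry4 passed on both days, Fgf12 at 12 dpa, and Fgf2, Fgf9 and Spry1 at 14 dpa. Within the day, 17 members did not overlap in CPM between genotypes at 12 dpa, 6 higher and 11 lower. Among all genes the share was 51.7%, 25.7% higher and 26.0% lower. At 14 dpa 20 did not overlap, 5 higher and 15 lower, against 62.4%, 30.8% higher and 31.6% lower. The number that passed at 12 dpa was 5 without wild type replicate 1 of that day and 4 without replicate 2. The number at 14 dpa was 7 without mutant replicate 3 of that day and 6 without wild type replicate 1. Fgf18, Fgfbp1, Fgfr3 and Spry4 passed on both days whichever single library was left out. The 12 dpa calls of Fgf11 and Fgfr1 were fragile, lost under 15 and 11 of 21 alternatives, among them the TPM scales, the sex covariate and leaving out any 1 library of that day. With 1 such library left out the adjusted p was 0.0886 to 0.171 for Fgf11 and 0.0713 to 0.151 for Fgfr1. At 12 dpa Fgf12 and Fgfrl1 also missed the threshold when either wild type library of that day was absent. At 14 dpa Fgf2, Fgf9, Fgf11 and Fgfrl1 missed it without mutant replicate 3 or without wild type replicate 1, Fgfr1 without wild type replicate 1, Fgf2 and Fgf9 without wild type replicate 2, and Fgfrl1 without mutant replicate 1.

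The genotype difference itself was not shown to change between days. In that test 0 members passed, as did 0% of all genes, and 3 members had an unadjusted p under 0.05 by edgeR and 4 by DESeq2, which also called 0 members. The 3 were Fgf22 (1.09 on the log2 scale, 14 dpa minus 12 dpa, adjusted p = 0.545), Fgf12 (-2.05, adjusted p = 0.55) and Spry1 (0.61, adjusted p = 0.545). From 12 to 14 dpa within mutants 0 members passed, against a background of 0.0346%, and 5 had an unadjusted p under 0.05, with DESeq2 calling 1, Spry4 (adjusted p = 0.0227). In edgeR the log2 change of Spry4 in mutants was -0.82 (SE 0.24, adjusted p = 0.133), and that of Fgf12 was -1.89 (SE 0.49, adjusted p = 0.118). Within wild type 0 members passed from 12 to 14 dpa, as did 0% of all genes, with 3 members at an unadjusted p under 0.05 by edgeR and 3 by DESeq2, which called 0.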

How the data were processed

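RNA was sequenced from dissected digit tip tissue with a stranded total RNA kit, per the labels' protocols. Per the file headers, the deposited values per gene and library are expected counts, TPM and FPKM, in RSEM's column layout. RSEM 1.3.0, STAR 2.7.8a, FastQC and the build GRCm39 are named in the submitters' processing notes without role or order. The authors' expected counts are not normalized, and 13.9% were not whole. The authors' TPM are scaled for gene length, then to the same sum in each library. The FPKM deposited by the authors were not used. The authors' TPM table of protein-coding genes equalled the single files exactly and served to find the members.

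Expected counts were rounded and tested in edgeR 4.0.16 (limma 3.58.1, R 4.3.3) after filterByExpr (minimum count 10, minimum total 15) with TMM factors. One robust quasi-likelihood fit held all 10 libraries and 4 group means. Contrasts were mutant minus wild type over both days and on each day, the difference between days, and 14 minus 12 dpa within each genotype. Each SE given was derived from the test, as the absolute log2 fold change divided by the square root of its F statistic. The script was tested on simulated data. CPM use TMM-scaled library sizes, and levels were compared between genes only in TPM. A ratio or share of TPM is a description. DESeq2 1.42.0, limma on log2(TPM + 1) and on log2(TPM + 0.1), other scaling factors and filters, a sex covariate, the genotype tag and each library left out were alternatives.

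Groups and numbers came from titles; the titles and descriptions number the 2 wild type 14 dpa libraries in opposite order. Replicates differed beyond counting noise (chi-square per degree of freedom 125.1 to 243.5). The labels call them biological but do not say whether separate animals were used, so p-values cover only the spread between libraries, which can be technical in part. Floors cover counting error only. The members and lists were chosen with earlier results of these data known. Named in full were members past the threshold in any contrast and the most abundant member of each role. From each other list the text names the called genes of largest change in each direction and the most abundant gene. Overlapping genes came from GENCODE M21 on GRCm38, and promoters from RefSeq on GRCm38.p6, whose coordinates are not those of the files' build.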

Additional observations from a re-analysis of the deposited data

Results flagged for a closer look

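Fgf13, an intracellular family member that did not pass any genotype test, had its genotypes in opposite order on the 2 days. At 12 dpa all mutant libraries, at 1.41 to 2.42 CPM, lay above both wild type libraries, at 1.40 CPM each, and at 14 dpa all mutant libraries, at 1.16 to 1.56 CPM, lay below both wild type libraries, at 1.62 and 2.13 CPM. The difference between the genotype contrasts, 14 minus 12 dpa, was -0.88 on the log2 scale (edgeR, unadjusted p = 0.0569, adjusted p = 0.58), so the difference between days did not pass its test. The opposite order was seen in CPM but not in TPM, where the genotypes overlapped on both days. Mutants had 0.60 to 1.11 TPM, against 0.59 and 0.66 TPM in wild type, at 12 dpa, and 0.49 to 1.39 TPM, against 0.67 and 0.74 TPM in wild type, at 14 dpa. On log2(TPM + 1) the difference was -0.01 (limma, adjusted p = 0.999).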

How the results depend on the processing

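No called member or named list gene reversed direction under the alternatives that gave it a value. Among the 12 tested members not called over both days, the sign of the log2 fold change differed from that given under 7 of 20 alternatives for Fgf13, 6 for Spred2, 4 for Etv4, 3 for Spry2, 2 for Spred1 and 2 of 19 for Fgfr4. Over both days the 14 member calls became 13 with a strict filter, 14 with each other scaling, filter, tool or the sex covariate, and 11 to 15 with 1 library left out. At 12 dpa the 9 calls became 4 to 12 and at 14 dpa the 11 calls became 6 to 12 with 1 library left out. Correlations of same-numbered deviations from the group means were -0.121 to 0.0862. In a group of 2 libraries these deviations mirror each other, so they cannot decide whether shared replicate numbers pair the libraries. With the replicate number as a block, 12 members passed over both days, 4 at 12 dpa and 6 at 14 dpa. With the tagged mutant library placed in wild type, 0 members passed over both days, at 12 dpa and at 14 dpa (13, 9 and 2 at an unadjusted p under 0.05), and 0 of all genes over both days (5448 unadjusted), the cause of which was not tested. From 12 to 14 dpa in mutants, 0 calls became 1 with DESeq2 (Spry4), 1 on log2(TPM + 1) and 1 on log2(TPM + 0.1) (Fgf12 in each). On the TPM scales the median log2 fold change of all genes was 0.14 and 0.26, and calls over all genes split 6750 higher and 2650 lower, and 6881 and 2684, against 4354 and 4489 on counts. There Fgf1 and Dusp6 were lost and Fgfr2 and Fgf3 gained. The strict filter removed Fgf12, so it gave no value there. The 10 calls among receptor adaptors and MAP kinase genes became 6 without a filter and 3 with the block, and all 3 pathway lists had 0 calls with the tagged library in wild type. Over all genes, the 7 calls from 12 to 14 dpa in mutants became 1505 with DESeq2 and 313 and 337 on the TPM scales, the 0 in wild type became 77 with DESeq2, and the 0 for the difference between days became 48. Replicates number 2 or 3 per group, which limits the precision of each fold change, and genes below 1 CPM rest on few reads.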
